A study of Mus musculus with 3 samples.

Results

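The solute carrier genes described here were the 128 symbols beginning with Slc and a digit that had 100 or more unique molecular identifiers (UMIs, which tag single captured transcripts) in total in both the Drop-seq and the 10x Chromium count table. They came from 376 such symbols, among 32362 gene symbols in all. Under this rule the totals alone decided membership, but the members and the gene lists below were chosen with earlier results of these data known. Just inside the minimum were Slc38a6, with 175 UMIs in Drop-seq and 100 in 10x Chromium, Slc46a1 with 160 and 101, and Slc9a8 with 101 and 250. Just outside it were Slc34a1 with 97 and 389 and Slc29a3 with 99 and 109. A pair of the members, Slc9a3r1 and Slc9a3r2, fit the naming rule but encode the NHERF scaffold proteins, which hold transporters at the membrane and carry no solute themselves. Slc4a1ap, named as an adaptor protein, and Slc7a6os, named for the strand opposite Slc7a6, also fit the rule by symbol and are not carriers. By the number after Slc the members comprised 30 mitochondrial carriers and 19 carriers of amino acids and peptides, Slc7a6os included. There were 19 of inorganic ions and phosphate, the 2 scaffolds and Slc4a1ap included, and 19 of metals. Smaller families were 13 of nucleotide sugars, 10 of carboxylates, organic ions and drugs and 8 of sugars. A further 7 were of lipids, choline and vitamins, 1 of nucleosides and 2 others.

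Single-cell RNA was measured in whole kidneys of wild-type mouse embryos at embryonic stage E14.5, of a mixed strain made up mostly of CD-1 and 129. One library was made on each of 3 platforms, namely the droplet methods Drop-seq and 10x Chromium and the microfluidic chip Fluidigm C1. There was no treatment, mutation or second age, so the classes of cells below are stages and lineages found side by side on 1 day, not a time course. The labels do not say how many embryos went into a library. After quality filters 1964, 2130 and 883 cells remained, with a median of 7060, 7369 and 166712 counts per cell. Counts are UMIs in the first 2 libraries and reads in C1, for which no molecular identifier is stated. Values below are given in the order Drop-seq, 10x Chromium and C1, in CPM, the counts of a gene scaled to 1000000 counts of all genes in all cells of the class in that library. Brackets give exact Poisson 95% intervals, which cover counting error only, and C1 intervals are too narrow because reads of 1 molecule are not independent. No CPM value is scaled by gene length, so levels are compared between classes, not between genes.

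Classes were found by clustering each library on genes other than the solute carriers and were named from marker genes. Cap mesenchyme, the Six2-positive nephron progenitors, held 587, 224 and 207 cells. Early nephron cells, marked by Wnt4, Lhx1 and Pax8, numbered 241, 58 and 99. Proximal precursors, marked by Lrp2 and Hnf4a, numbered 164, 120 and 66, and distal precursors, marked by Pou3f3, Irx genes and Umod, numbered 90, 80 and 29. The ureteric epithelium held 175, 153 and 52 cells, the stroma 380, 806 and 238 and the endothelium 102, 390 and 74. A podocyte class was found in Drop-seq (96 cells) and 10x Chromium (82 cells), an erythroid class in Drop-seq (57 cells), and immune cells were few (11, 34 and 15). The clusters left without a name held 61, 183 and 103 cells, and 1 of these, with 111 cells of 10x Chromium, resembled early nephron with proximal genes. The 10x Chromium early nephron class therefore rested on 1 cluster, in which the summed distal precursor markers stood at 1064 CPM and 8 of 16 proximal markers had no UMI. No cell barcode was shared between libraries.

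Solute carriers move ions, sugars, amino acids, metals and metabolites across the plasma membrane and the membranes of organelles. In the adult kidney the proximal tubule takes back most filtered solutes through sodium-coupled carriers and secretes organic ions, while the thick ascending limb, a distal segment, absorbs salt through the furosemide-sensitive cotransporter encoded by Slc12a1. These segments form from the cap mesenchyme, which epithelialises and is patterned into proximal and distal parts, whereas the collecting duct comes from the ureteric epithelium.

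Upstream sequences are shown for 4 members that were called higher in proximal precursors than in cap mesenchyme and have a window outside annotated exons. Slc19a1, Slc25a13, Slc25a5 and Slc9a3r1 also meet both conditions and are not shown. Promoter windows from RefSeq on GRCm38.p6, covering 250 bases before and 50 after a start site, matched 99 of the 128 members, with 139 windows. A pair of motifs was searched on both strands after matches to several motifs had been seen: GTTAAT, the half-site bound by the hepatocyte nuclear factor HNF1, and CAAAGTCCA, a site of the nuclear receptor HNF4A. Neither motif contains the other. GTTAAT was present in 7.099% of all 32851 windows and in 3 of the 139 member windows, those of Slc39a5, Slc39a9 and Slc6a13. CAAAGTCCA was present in 0.475% of all windows and in 0 of the member windows. Among the 23 windows of the members called higher in proximal precursors, 2 held GTTAAT. The 250 bases before the start are printed 5′ to 3′ on the strand of the gene, and capitals mark the motif, which here reads ATTAAC on that strand. They lie at chr6:121300490-121300739 (Slc6a13, a start within the gene), chr3:135825029-135825278 (Slc39a8), chr5:89027716-89027965 (Slc4a4, a start within the gene) and chr9:94669642-94669891 (Slc9a9), all on the plus strand and outside annotated exons.
Slc6a13: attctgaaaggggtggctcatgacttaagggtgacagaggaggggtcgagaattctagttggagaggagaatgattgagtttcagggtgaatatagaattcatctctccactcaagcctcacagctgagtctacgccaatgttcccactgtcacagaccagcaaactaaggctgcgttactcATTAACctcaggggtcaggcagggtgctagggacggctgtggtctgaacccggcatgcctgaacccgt
Slc39a8: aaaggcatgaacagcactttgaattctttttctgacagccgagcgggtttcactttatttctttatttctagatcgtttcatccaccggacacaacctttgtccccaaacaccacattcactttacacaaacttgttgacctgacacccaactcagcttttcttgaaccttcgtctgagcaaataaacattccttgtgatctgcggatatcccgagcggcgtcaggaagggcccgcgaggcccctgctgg
Slc4a4: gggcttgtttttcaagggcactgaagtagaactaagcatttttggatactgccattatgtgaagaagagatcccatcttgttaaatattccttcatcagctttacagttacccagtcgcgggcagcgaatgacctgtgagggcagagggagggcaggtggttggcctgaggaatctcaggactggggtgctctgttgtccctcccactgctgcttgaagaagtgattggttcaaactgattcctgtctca
Slc9a9: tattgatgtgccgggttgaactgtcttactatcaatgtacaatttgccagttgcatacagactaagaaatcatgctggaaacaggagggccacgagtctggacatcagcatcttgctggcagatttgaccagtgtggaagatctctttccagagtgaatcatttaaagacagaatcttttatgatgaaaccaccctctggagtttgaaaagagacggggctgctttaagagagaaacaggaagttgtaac
The only match in these 4 windows was that of Slc6a13, 68 bases before its start.

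All 128 members passed the filter on low counts and were tested among 6227 genes that had served neither for clustering nor for naming. Class sums per library were compared by edgeR's quasi-likelihood test with the library as a block (3 libraries, two-sided, Benjamini-Hochberg adjusted over the 6227 genes, threshold 0.05). The libraries differ in platform, and the block removes the difference in level between them. The p-values set a class difference against the variation of class differences between libraries, estimated over the 8 classes in the fit. No platform has a replicate, so variation between embryos was not measured apart from platform. The 7 comparisons share classes and are not independent of one another. At least 1 comparison called 62 of the members, or 48.4%, and 43.9% of all tested genes, and none called the other 66. By family, at least 1 call was made for 12 of 30 mitochondrial carriers, 10 of 19 carriers of amino acids and peptides and 10 of 19 of inorganic ions and phosphate. Calls were also made for 8 of 19 of metals, 5 of 13 of nucleotide sugars and 6 of 10 of carboxylates, organic ions and drugs. The remaining families had 5 of 8 (sugars), 3 of 7 (lipids, choline and vitamins), 1 of 1 (nucleosides) and 2 of 2 (others). These counts describe the families, and no family was tested against the 43.9%. Slc9a3r1 was called in 7 of the 7 comparisons and Slc25a5 in 5. Summed over the 128 members, the level lay between 5369 and 6983 CPM in the Drop-seq classes that were compared, highest in distal precursors. The corresponding range was 5045 to 7668 CPM in 10x Chromium, again highest in distal precursors, and 6034 to 6716 CPM in C1, highest in cap mesenchyme. The mitochondrial phosphate carrier Slc25a3 and the ADP/ATP carriers Slc25a4 and Slc25a5 together held 42.57% to 53.65% of the members' counts in these classes.

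**Figure D1:**
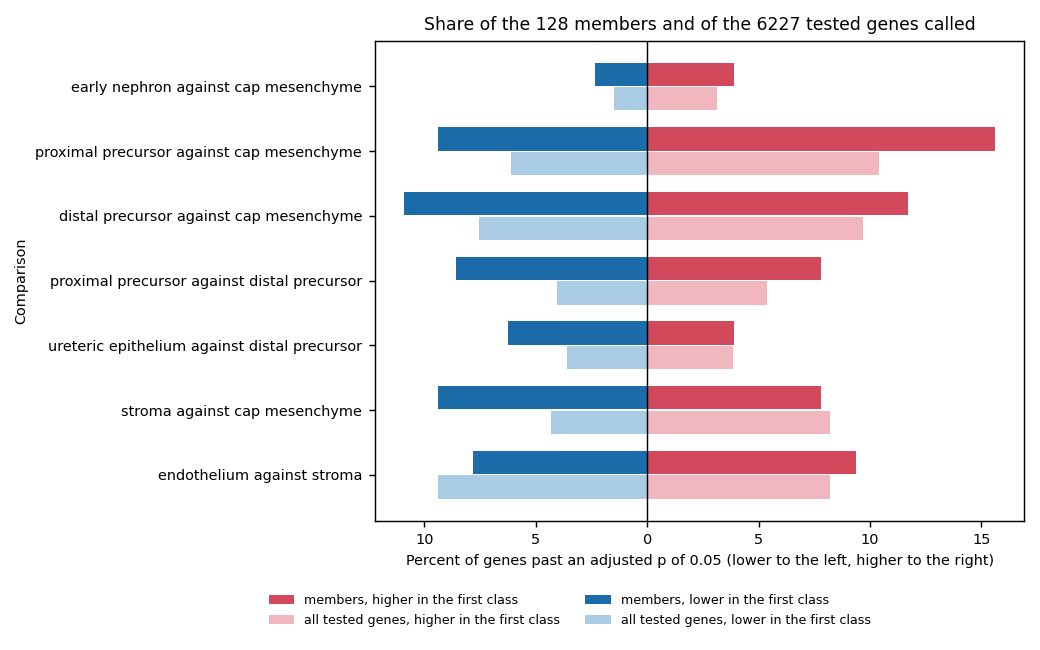
Percent of the 128 members (dark bars) and of all 6227 tested genes (pale bars) past an adjusted p of 0.05 in each of 7 class comparisons, with genes higher in the first class to the right and lower to the left. In proximal precursors against cap mesenchyme 15.6% of members were higher, beside 10.4% of all genes, and in endothelium against stroma the shares in either direction were 17.2% and 17.6%. The dark and pale bars are not set against each other as a result, because UMIs of the classes compared helped to choose the members.

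The proximal precursors differed from cap mesenchyme in 20 members that were higher and 12 that were lower. These were 15.6% and 9.38% of the members, beside 10.4% and 6.12% of all tested genes, or 25% against 16.5% in either direction. The members' shares are not set against those of all genes as a result, because the UMIs that chose the members include those of the classes compared. Of the 125 Drop-seq UMIs of Slc47a1, 85 came from proximal precursors, as did 144 of 178 for Slc39a5 and 55 of 115 for Slc6a13, so these 3 reached the minimum through this class. Among the 93 members with at least 100 UMIs in both UMI tables from cells outside the 2 classes, 13 were higher and 11 lower (14% and 11.8%). The other 35 members held 7 of the higher calls (Slc39a5, Slc39a8, Slc47a1, Slc4a4, Slc6a13, Slc6a8 and Slc9a9) and 1 of the lower (Slc1a3). Their calls are a description, because the classes compared helped to choose these members. The median log2 fold change was 0.07 over the 128 members and -0.03 over all genes. Those higher included transporters of zinc, organic cations, bicarbonate, betaine and creatine. Those lower included carriers of lactate and of neutral and cationic amino acids.

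Slc47a1, which encodes an exporter of organic cations at the apical membrane, was at 49.9 (39.9 to 61.7), 46.4 (33.97 to 61.9) and 47.8 (44.6 to 51.2) CPM in proximal precursors. In cap mesenchyme it was at 0.422 (0.0511 to 1.53), 0.957 (0.116 to 3.46) and 0.848 (0.587 to 1.19) CPM, from 2, 2 and 34 counts. The proximal values lay within a narrow range and above the other 6 compared classes in each library (log2 fold change 5.91 ± 0.74 (SE), adjusted p = 3.72e-06, edgeR). It was detected in 53 of 164, 37 of 120 and 42 of 66 proximal cells. In distal precursors it had 4 UMIs in Drop-seq and none in the other libraries, where 3 counts would give 5.08 and 0.606 CPM.

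Slc39a5, a zinc importer, was at 84.5 (71.3 to 99.5), 222 (194 to 253) and 66.04 (62.3 to 70.0) CPM in proximal precursors and at 0.844, 3.83 and 1.497 CPM in cap mesenchyme. This was the largest difference of any member in that comparison (log2 fold change 6.30 ± 0.69 (SE), adjusted p = 1.49e-06, edgeR). Its level in the C1 stroma, 9.08 CPM from 44 of 238 cells, was the highest outside proximal precursors in that library among the compared classes. The gene lies at chr10:128395931-128401229 on the minus strand (GRCm38). Slc39a8, another importer, of zinc and manganese, was at 41.1, 62.5 and 50.9 CPM in proximal precursors and 4.22, 3.83 and 2.32 CPM in cap mesenchyme (log2 fold change 3.99 ± 0.49 (SE), adjusted p = 2.11e-06, edgeR). The early nephron lay between them, at 16.9, 11.8 and 10.4 CPM.

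Slc4a4, the basolateral sodium bicarbonate cotransporter through which adult proximal cells return bicarbonate to the blood, was at 24.1, 41.4 and 21.4 CPM in proximal precursors and 2.32, 3.35 and 1.65 CPM in cap mesenchyme (log2 fold change 3.63 ± 0.56 (SE), adjusted p = 5.09e-05, edgeR). It was also present in the stroma, at 13.2, 10.4 and 4.51 CPM. Slc6a13, a transporter of GABA, betaine and taurine, was at 32.3, 87.8 and 39.9 CPM in proximal precursors and 2.74, 8.61 and 5.24 CPM in cap mesenchyme (log2 fold change 3.28 ± 0.51 (SE), adjusted p = 5.21e-05, edgeR). In all 3 libraries both genes were highest in proximal precursors among the 7 compared classes. Slc6a8, the creatine transporter, was at 20.5, 53.5 and 43.8 CPM against 5.28, 11.5 and 6.06 CPM (log2 fold change 2.40 ± 0.39 (SE), adjusted p = 7.55e-05, edgeR). Its distal values, 16.1, 37.2 and 17.6 CPM, overlapped the proximal ones within counting error in Drop-seq and in 10x Chromium.

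Slc9a9, an endosomal sodium-proton exchanger, was at 21.7, 10.1 and 15.4 CPM in proximal precursors and 2.32, 2.39 and 2.57 CPM in cap mesenchyme (log2 fold change 2.75 ± 0.65 (SE), adjusted p = 0.00366, edgeR). That call was lost without the Drop-seq library (adjusted p = 0.129, edgeR), and in C1 the early nephron and endothelium values, 26.3 and 17.7 CPM, were above the proximal one. Slc37a4, the glucose 6-phosphate translocase of the endoplasmic reticulum needed for glucose release, was at 44.02, 72.6 and 43.8 CPM against 9.08, 11.96 and 13.8 CPM (log2 fold change 2.21 ± 0.34 (SE), adjusted p = 4.59e-05, edgeR). The scaffold Slc9a3r1 was at 113, 319 and 152 CPM in proximal precursors, above the other 6 compared classes in each library. In cap mesenchyme it was at 32.5, 75.1 and 40.8 CPM (log2 fold change 1.97 ± 0.25 (SE), adjusted p = 3.64e-06, edgeR).

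**Figure D2:**
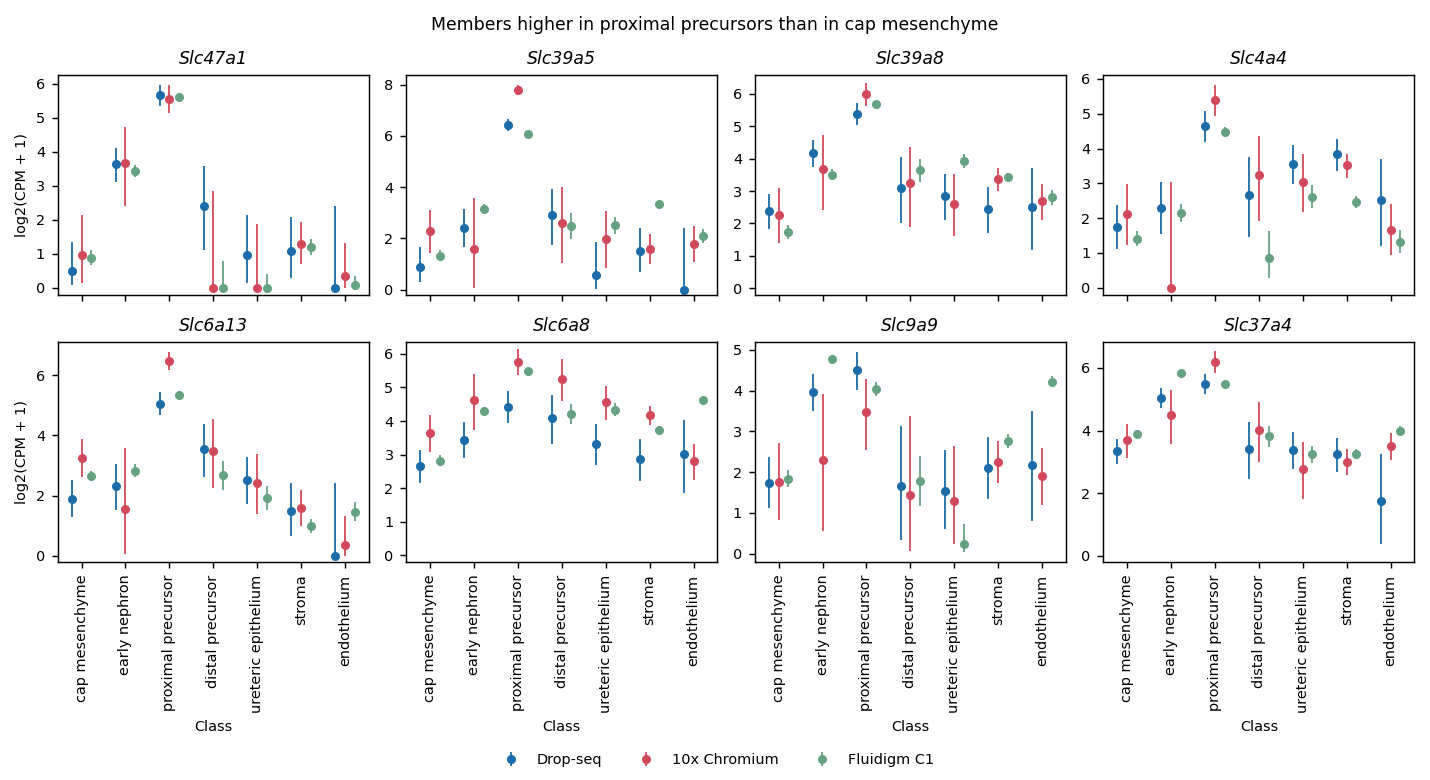
Level of 8 members in 7 classes, on a log2(CPM + 1) scale, with 1 point per library (blue Drop-seq, red 10x Chromium, green C1) and bars for the exact Poisson 95% interval of the count. All 3 libraries have their highest point for Slc47a1, Slc39a5, Slc39a8, Slc4a4, Slc6a13 and Slc6a8 in proximal precursors, while for Slc9a9 and Slc37a4 the C1 value is higher in early nephron.

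Other members higher in proximal precursors were the heme transporter Slc48a1 (log2 fold change 1.57 ± 0.22 (SE), adjusted p = 1.53e-05, edgeR), the nucleotide sugar carriers Slc35b4 and Slc35a3 and 5 members of the mitochondrial carrier family. The latter were Slc25a10 for dicarboxylates, Slc25a13 for aspartate and glutamate, the peroxisomal carrier Slc25a17, the ADP/ATP carrier Slc25a5 and Slc25a51, which carries NAD. Their log2 fold changes ran from 0.44 (Slc25a5) to 1.15 (Slc25a10). The iron importer Slc11a2 and the folate carrier Slc19a1 were higher by 0.93 and 1.15, with adjusted p = 0.0454 and 0.0295 by edgeR. Slc33a1, the acetyl-CoA transporter, was also called higher, but another gene's annotation covers 32% of its exonic sequence, so its counts may hold reads of that gene.

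The members lower in proximal precursors were led by Slc16a3, an exporter of lactate, at 8.80, 2.02 and 4.90 CPM against 28.1, 38.8 and 24.3 CPM (log2 fold change -2.32 ± 0.46 (SE), adjusted p = 0.000697, edgeR). In each library the cap mesenchyme value was the highest of the 7 compared classes. Slc16a1, another monocarboxylate transporter, was at 19.96, 6.05 and 9.46 CPM against 40.7, 32.5 and 56.9 CPM (log2 fold change -1.95 ± 0.31 (SE), adjusted p = 7.84e-05, edgeR). Of the amino acid transporters, the glutamate carrier Slc1a3, the glutamine carrier Slc1a5 and the arginine and lysine carrier Slc7a1 had log2 fold changes of -2.13, -1.39 and -1.70. Slc12a2, the secretory sodium-potassium-chloride cotransporter, was at 31.1, 13.1 and 47.5 CPM against 52.1, 67.0 and 135 CPM (log2 fold change -1.51 ± 0.29 (SE), adjusted p = 0.000499, edgeR). The mitochondrial pyrimidine carrier Slc25a33 and the bicarbonate cotransporter Slc4a7 had log2 fold changes of -1.67 and -1.17. Without Drop-seq 21 members were called and without 10x Chromium 16, in place of 32. Among the 16 with the largest changes, Slc1a3 and Slc9a9 were lost without Drop-seq, Slc1a3, Slc25a33 and Slc4a7 without 10x Chromium, and Slc4a7 without C1.

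Of 42 transporters of the adult proximal tubule, 5 are members (Slc47a1, Slc4a4, Slc6a13, Slc37a4 and Slc20a2) and 37 did not reach the UMI minimum. The fit tested 27 of the 42, and 22 were higher in proximal precursors than in cap mesenchyme, with 0 lower and a median log2 fold change of 5.71 beside -0.03 over all genes. Genes as rare as these pass a filter on low counts through the class in which they are high, so the count is a description. The remaining 15 were not tested. The member Slc20a2, a phosphate transporter of broad distribution, was at 11.2, 20.2 and 14.99 CPM in proximal precursors and 19.6, 13.9 and 19.04 CPM in cap mesenchyme and was not called. Slc34a1, the phosphate transporter that narrowly missed the minimum, was at 55.2, 312 and 75.5 CPM in proximal precursors and 0.211, 2.39 and 0.125 CPM in cap mesenchyme. In Drop-seq 94 of its 97 UMIs came from proximal precursors. The glucose transporter Slc2a2 was at 28.8, 58.5 and 84.5 CPM and the organic anion importer Slc22a6 at 15.8, 30.3 and 12.2 CPM in proximal precursors, and in cap mesenchyme these were at 0.211, 1.44 and 0.499 CPM and 0, 0 and 0.150 CPM.

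Against distal precursors the proximal precursors were higher in 10 members and lower in 11, or 7.81% and 8.59% of members beside 5.38% and 4.03% of all tested genes. In either direction the shares were 16.4% and 9.41%, and the median log2 fold change was 0.10 over members and 0.02 over all genes. Both classes come from the same fit as above, so the proximal values are not new evidence. Of the 108 members with at least 100 UMIs outside these 2 classes in both UMI tables, 5 were higher and 10 lower (4.63% and 9.26%). The other 20 members held 5 of the higher calls (Slc39a5, Slc47a1, Slc4a4, Slc6a13 and Slc9a9) and 1 of the lower (Slc12a1). Their calls are likewise a description. Slc9a3r1 (log2 fold change 3.19 ± 0.29 (SE), adjusted p = 3.32e-07, edgeR) and Slc39a5 (log2 fold change 4.65 ± 0.69 (SE), adjusted p = 0.000146, edgeR) were higher in proximal precursors, and the values of the 3 libraries did not overlap between the classes. Slc47a1, Slc4a4, Slc9a9, Slc6a13, Slc39a8 and Slc37a4 were also higher in proximal precursors. So were the nucleotide sugar carrier Slc35d1, with 4, 0 and 7 counts in distal precursors, and the iron exporter Slc40a1.

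The members higher in distal precursors were led by Slc12a1, treated below. Slc1a5, the glutamine transporter, was at 38.6, 47.4 and 31.5 CPM in distal and 8.80, 6.05 and 9.11 CPM in proximal precursors, and the class ranges did not overlap (log2 fold change -2.12 ± 0.32 (SE), adjusted p = 0.000123, edgeR). The choline transporter Slc44a2, the sugar transporter Slc50a1, the inositol transporter Slc5a3, the anion exchanger Slc4a3, the zinc importer Slc39a10, Slc7a1 and the mitochondrial carriers Slc25a5, Slc25a11 and Slc25a12 were likewise higher in distal precursors. Slc5a3 stood at 16.1, 59.2 and 10.1 CPM in distal and 9.39, 10.1 and 4.61 CPM in proximal precursors, and these ranges touched across libraries. Without Drop-seq 10 members were called and without 10x Chromium 10, in place of 21. Among the 16 with the largest changes, Slc9a9, Slc35d1, Slc44a2, Slc5a3, Slc4a3, Slc25a12 and Slc7a1 were lost in either case, Slc4a4 without Drop-seq and Slc6a13 without 10x Chromium. Slc50a1 and Slc7a1 were lost without C1. Markers of proximal precursors summed to 104, 212 and 93.3 CPM in distal precursors, beside 1290.0, 2698 and 1697 CPM in proximal precursors. The C1 distal class was the smallest used, with 29 cells.

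In distal precursors compared with cap mesenchyme 15 members were higher and 14 lower (11.7% and 10.9%, beside 9.67% and 7.53% of all genes, and 22.7% against 17.2% in either direction). The median log2 fold change was 0.05 over members and -0.06 over all genes. Of the 103 members with at least 100 UMIs outside these 2 classes in both UMI tables, 13 were higher and 14 lower. The other 25 members held the higher calls of Slc12a1 and Slc45a4. Both calls are a description, because the classes compared helped to choose these members. Slc12a1 was at 210.3 (181.9 to 242), 504 (449 to 565) and 24.4 (20.3 to 29.2) CPM in distal precursors. It was at 1.06, 0.478 and 0.175 CPM in cap mesenchyme, from 5, 1 and 7 counts (log2 fold change 8.10 ± 1.18 (SE), adjusted p = 0.000268, edgeR). Of the 237 Drop-seq UMIs of Slc12a1, 196 came from distal precursors, as did 298 of 315 in 10x Chromium. Slc12a1 thus reached the minimum through this class, and its calls against other classes are a description. The C1 level was far below those of the droplet libraries. Counts were found in 32 of 90, 45 of 80 and 6 of 29 distal cells, so most distal cells had none at this depth. Slc12a1 also had 22 UMIs in 4 proximal cells of Drop-seq, against 0 and 2 counts in the proximal cells of the other libraries, and the call against proximal precursors was made with adjusted p = 0.00279 by edgeR. The gene lies at chr2:125152505-125230002 on the plus strand (GRCm38).

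Besides Slc12a1, Slc45a4, of a family of proton-coupled sugar carriers, was at 23.6, 44 and 8.49 CPM in distal precursors and 5.28, 4.78 and 6.69 CPM in cap mesenchyme (log2 fold change 1.99 ± 0.60 (SE), adjusted p = 0.023, edgeR). Its difference was large in the droplet libraries and small in C1. Slc6a8, Slc39a8, Slc48a1 and Slc35b4 were higher in distal as well as in proximal precursors than in the same cap mesenchyme sums. Of the 30 mitochondrial carriers 7 were higher and 2 lower, beside 9.67% and 7.53% of all tested genes, and the family was not tested as a set. The 7 include the peroxisomal carrier Slc25a17. In C1 the log2 ratios of Slc25a12 and Slc25a3 were only -0.015 and 0.034. Slc25a5 was at 1506, 1874 and 1830.3 CPM in distal precursors and 853, 734 and 1254 CPM in cap mesenchyme (log2 fold change 0.86 ± 0.13 (SE), adjusted p = 3.75e-05, edgeR). Slc25a11, the oxoglutarate carrier, was at 143, 193 and 188 CPM against 82.1, 87.5 and 111 CPM (log2 fold change 0.86 ± 0.16 (SE), adjusted p = 0.000431, edgeR). Both genes were highest in distal precursors in all 3 libraries. Slc25a4, the other ADP/ATP carrier, went the other way and was highest in cap mesenchyme in all 3 libraries, at 1469.7, 1165 and 1414 CPM against 1235, 955 and 949 CPM in distal precursors (log2 fold change -0.41, adjusted p = 0.0166, edgeR).

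The members lower in distal precursors than in cap mesenchyme included Slc12a2 (log2 fold change -2.21 ± 0.32 (SE), adjusted p = 3.38e-05, edgeR), Slc16a3, Slc25a33, Slc4a7, the amino acid carrier Slc43a1, the purine carrier Slc43a3, Slc35d1 and Slc9a3r1. Thus the cotransporter genes Slc12a1 and Slc12a2 moved in opposite directions, Slc12a2 standing at 23.6, 11.8 and 23.8 CPM in distal precursors and 52.1, 67.0 and 135 CPM in cap mesenchyme. Slc25a12, Slc29a1 and Slc5a3 were called although 1 library went the other way. The potassium-chloride cotransporter Slc12a7 was not called. Of 12 carriers of the adult distal nephron and collecting duct 8 were tested, Slc12a1 was higher, and Slc41a3, a magnesium carrier that is no member, was lower. The thiazide-sensitive cotransporter Slc12a3 had 0, 1 and 0 counts in distal precursors, and 3 counts there would be 3.22, 5.08 and 0.606 CPM. Without Drop-seq 9 members and without 10x Chromium 10 members were called, in place of 29. Among the 16 with the largest changes, Slc45a4, Slc6a8, Slc39a8, Slc35b4, Slc25a10, Slc43a1 and Slc35d1 were lost in either case, Slc16a3 and Slc48a1 without Drop-seq and Slc9a3r1 without 10x Chromium. Slc39a8 and Slc43a3 were lost without C1.

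**Figure D3:**
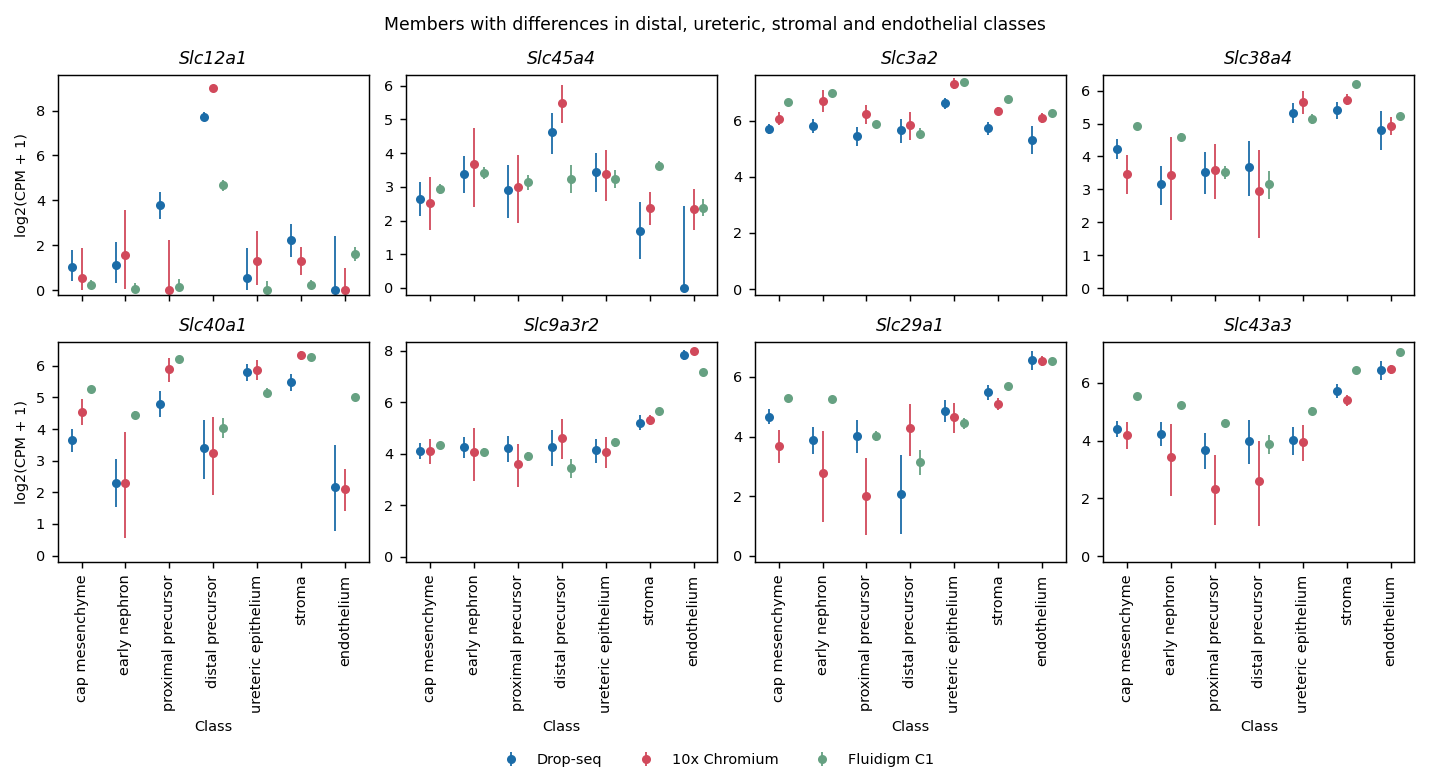
Level of 8 members in 7 classes, on a log2(CPM + 1) scale, with 1 point per library (blue Drop-seq, red 10x Chromium, green C1) and bars for the exact Poisson 95% interval of the count. Slc12a1 peaks in distal precursors, Slc3a2 has its highest point in ureteric epithelium, Slc38a4 in stroma and Slc9a3r2, Slc29a1 and Slc43a3 in endothelium in each library.

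The ureteric epithelium was higher than distal precursors in 5 members and lower in 8 (3.91% and 6.25%, beside 3.87% and 3.58% of all genes, and 10.2% against 7.45% in either direction). The median log2 fold change was 0.0044 over members and 0.04 over all genes. Of the 110 members with at least 100 UMIs outside these 2 classes in both UMI tables, 5 were higher and 7 lower. The other 18 members held the lower call of Slc12a1. Slc3a2, the heavy chain that brings several amino acid exchangers to the membrane, was at 97.2 (84.4 to 111), 159 (138 to 181) and 164 (156 to 171) CPM in the ureteric epithelium. In distal precursors it was at 49.4 (36.1 to 65.8), 55.8 (38.4 to 78.4) and 45.5 (39.7 to 51.8) CPM, and the intervals did not overlap in any library (log2 fold change 1.43 ± 0.19 (SE), adjusted p = 3.82e-05, edgeR). Slc38a4, a neutral amino acid carrier, was at 39.2, 49.5 and 34.4 CPM against 11.8, 6.77 and 7.88 CPM (log2 fold change 2.23 ± 0.37 (SE), adjusted p = 0.000472, edgeR). Slc40a1 was at 54.7, 57.5 and 34.4 CPM against 9.66, 8.46 and 15.6 CPM (log2 fold change 2.23 ± 0.59 (SE), adjusted p = 0.0267, edgeR), and its C1 difference was the smallest. Slc25a33 and Slc9a3r1 were also higher.

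Slc12a1 was nearly absent from the ureteric epithelium, with 1, 2 and 0 counts, and was called lower (adjusted p = 0.00116, edgeR). The fitted fold rests on those few counts and is not given. The anion exchanger Slc4a3 and the UDP-galactose carrier Slc35a2 were lower as well, as were 5 of 30 mitochondrial carriers, with log2 fold changes from -0.77 (Slc25a5) to -0.42 (Slc25a3). Among all tested genes 3.58% were lower, and the family was not tested as a set. Slc2a1, a glucose transporter of most cells, had its highest level of the 7 classes in the ureteric epithelium in each library, at 38.7, 56.7 and 41.9 CPM, although C1 endothelium, at 41.03 CPM, was close. In distal precursors it was at 17.2, 49.1 and 31.3 CPM, and the difference was not called. Without Drop-seq 5 members and without 10x Chromium 5 were called, in place of 13. Slc3a2, Slc38a4, Slc12a1 and Slc25a5 were called whichever library was left out. Slc25a33 was lost without 10x Chromium, and the other 8 were lost both without Drop-seq and without 10x Chromium.

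Early nephron cells differed from cap mesenchyme in 8 members, 5 higher and 3 lower (3.91% and 2.34%, beside 3.12% and 1.51% of all genes, and 6.25% against 4.63% in either direction). Of the 93 members with at least 100 UMIs outside these 2 classes in both UMI tables, 3 were higher and 3 lower. The other 35 members held the higher calls of Slc47a1 and Slc9a9, which are a description because the classes compared helped to choose these members. The median log2 fold change was -0.04 over members and -0.05 over all genes. Slc47a1 was at 11.4 (7.65 to 16.4), 11.8 (4.32 to 25.6) and 9.77 (8.50 to 11.2) CPM in early nephron, between the cap mesenchyme and proximal precursor values given above in each library (log2 fold change 3.66 ± 0.72 (SE), adjusted p = 0.00246, edgeR). Slc37a4 was at 31.9, 21.6 and 55.8 CPM in early nephron (log2 fold change 1.65 ± 0.34 (SE), adjusted p = 0.00327, edgeR), Slc39a8 at 16.9, 11.8 and 10.4 CPM (log2 fold change 1.94 ± 0.49 (SE), adjusted p = 0.0182, edgeR) and Slc9a9 at 14.6, 3.92 and 26.3 CPM (log2 fold change 2.60 ± 0.64 (SE), adjusted p = 0.0164, edgeR). The 10x Chromium value of Slc9a9 rested on 2 UMIs. Slc25a17 was higher, with a log2 fold change of 0.55, and Slc12a2, Slc9a3r1 and Slc25a4 were lower, with log2 fold changes of -1.26, -1.22 and -0.57.

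Slc9a3r1 was thus lower in early nephron than in cap mesenchyme and higher in proximal precursors, standing at 13.8, 25.5 and 21.4 CPM in early nephron. Markers of proximal precursors summed to 148, 49.0 and 337 CPM in early nephron, with 16, 8 and 14 of 16 detected, and to 75.6, 83.2 and 74.6 CPM in cap mesenchyme. Lrp2, Cubn and Hnf4a had no UMI in the 10x Chromium early nephron class. The part of the proximal markers in the early nephron differences was not tested. None of the 8 calls held without the Drop-seq library, where edgeR called 0 members and 12 had an unadjusted p under 0.05, and only those of Slc37a4 and Slc47a1 held without 10x Chromium. Without C1 the 8 calls held and 16 members were called.

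**Figure D4:**
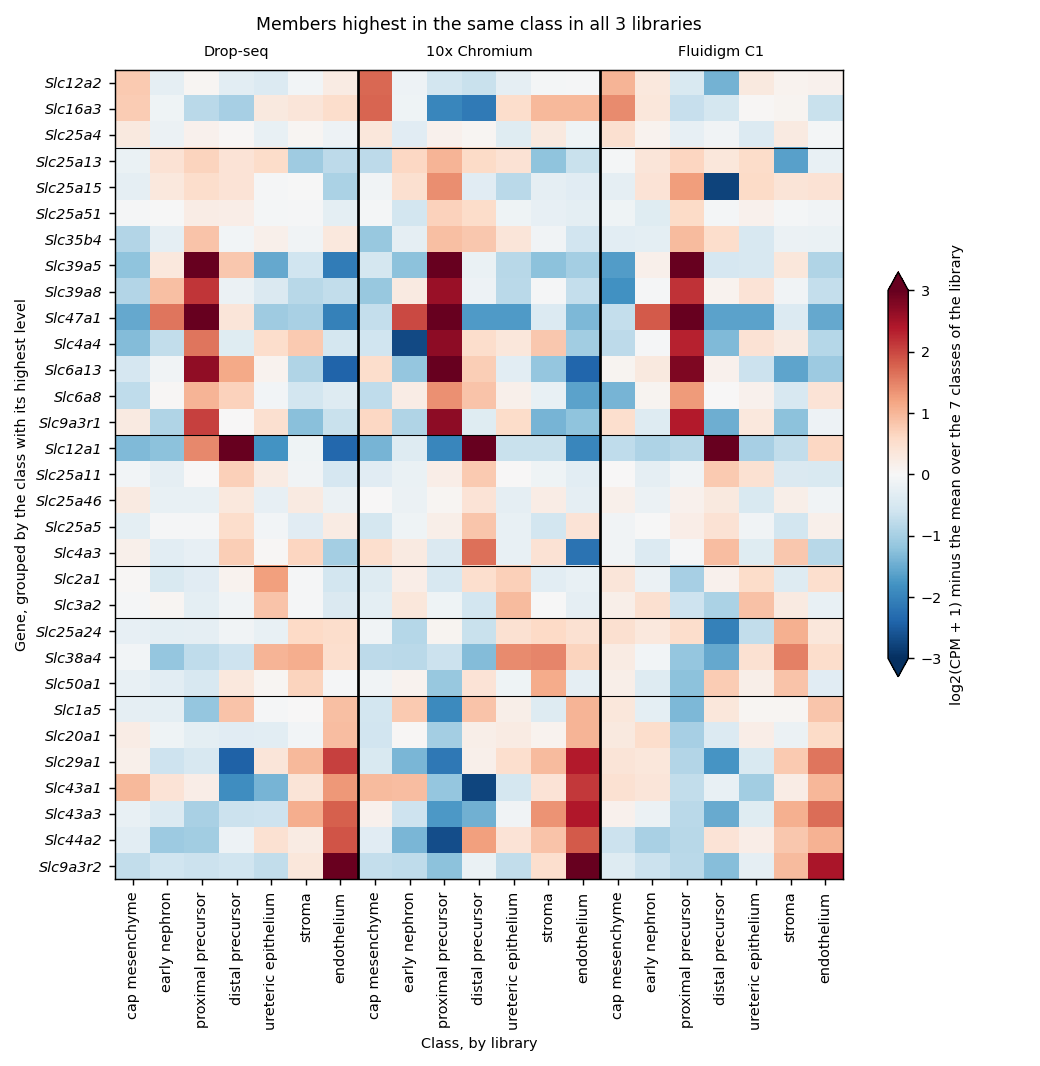
Level of 31 members whose highest class, of 7, was the same in all 3 libraries, as log2(CPM + 1) minus the mean over the 7 classes of that library, with red above and blue below the mean. Rows are grouped by the class of highest level, with 11 members in proximal precursors, 7 in endothelium, 5 in distal precursors, 3 in cap mesenchyme, 3 in stroma and 2 in ureteric epithelium.

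The stroma was higher than cap mesenchyme in 10 members and lower in 12 (7.81% and 9.38%, beside 8.22% and 4.32% of all genes, and 17.2% against 12.5% in either direction). The median log2 fold change was 0.04 over members and 0.0053 over all genes. Of the 86 members with at least 100 UMIs outside these 2 classes in both UMI tables, 7 were higher and 10 lower. The other 42 members held the higher calls of Slc18b1, Slc39a13 and Slc4a4 and the lower calls of Slc16a6 and Slc6a13. Those calls are a description, because the classes compared helped to choose these members. Slc38a4 was at 41.2, 51.7 and 72.5 CPM in stroma, above the other 6 compared classes in each library, and at 17.7, 10.05 and 29.2 CPM in cap mesenchyme (log2 fold change 1.47 ± 0.30 (SE), adjusted p = 0.00143, edgeR). Slc40a1 was at 43.8, 79.8 and 77.3 CPM in stroma and 11.6, 22.5 and 37.5 CPM in cap mesenchyme (log2 fold change 1.57 ± 0.48 (SE), adjusted p = 0.0377, edgeR). The scaffold Slc9a3r2, the purine carrier Slc43a3, the sugar transporter Slc50a1, the zinc transporters Slc39a13 and Slc39a1, the polyamine transporter Slc18b1, Slc35b1 and Slc4a4 were also higher. Slc4a4 had a log2 fold change of 1.82 with an adjusted p of 0.0271 by edgeR.

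The members lower in stroma included Slc9a3r1, at 10.7, 17.8 and 11.5 CPM (log2 fold change -1.90 ± 0.26 (SE), adjusted p = 3.04e-05, edgeR), Slc6a13, Slc12a2, the glutamine carrier Slc38a1, Slc16a1 and 4 of 30 mitochondrial carriers. Among all tested genes 4.32% were lower, and no family was tested as a set. Slc25a13 was at 19.1, 13.1 and 10.3 CPM in stroma and 35.7, 17.7 and 32.4 CPM in cap mesenchyme (log2 fold change -1.12 ± 0.22 (SE), adjusted p = 0.00128, edgeR). Slc16a6, called lower, shares 23.5% of its exonic bases with other genes and had 16 reads in the C1 cap mesenchyme and 1 in the C1 stroma. Without Drop-seq 4 members and without 10x Chromium 7 were called, in place of 22. Of the 16 with the largest changes, the calls of Slc38a4, Slc12a2, Slc38a1 and Slc9a3r1 held without Drop-seq. Those of Slc9a3r1, Slc9a3r2, Slc43a3, Slc25a13 and Slc38a1 held without 10x Chromium, and Slc39a13 was lost without C1.

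The endothelium was higher than stroma in 12 members and lower in 10 (9.38% and 7.81%, beside 8.21% and 9.39% of all genes), and the share in either direction, 17.2%, was near the 17.6% of all genes. Of the 88 members with at least 100 UMIs outside these 2 classes in both UMI tables, 12 were higher and 6 lower. The other 40 members held the lower calls of Slc2a4, Slc46a1, Slc47a1 and Slc4a4. As above, such calls are a description. The median log2 fold change was -0.04 over members and -0.05 over all genes. Slc9a3r2 was at 228 (197 to 262), 254 (238 to 271) and 142 (137 to 147) CPM in endothelium. In stroma it was at 36.03, 38.98 and 50.2 CPM, and no other compared class exceeded the stroma in the same library (log2 fold change 2.37 ± 0.24 (SE), adjusted p = 1.54e-07, edgeR). Podocytes, which were not part of the comparisons, also held it, at 99.8 and 123 CPM in Drop-seq and 10x Chromium. Slc29a1, a nucleoside transporter of vascular and blood cells, was at 93.2, 91.8 and 91.2 CPM in endothelium, whereas stroma had 43.8, 33.1 and 51.0 CPM (log2 fold change 1.25 ± 0.40 (SE), adjusted p = 0.0353, edgeR). Slc43a3 was at 86.1, 87.5 and 133 CPM against 51.8, 40.96 and 86.7 CPM (log2 fold change 0.93 ± 0.24 (SE), adjusted p = 0.00811, edgeR), and its C1 stroma value lay within the endothelial range. Each of the 2 genes was highest in endothelium of the 7 classes in each library.

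Among the amino acid carriers Slc1a5, Slc7a1 and Slc38a1 were higher in endothelium, with log2 fold changes of 1.13, 1.39 and 0.84, and none of the 19 in that family was lower. Of all tested genes 8.21% were higher and 9.39% lower, and no family was tested as a set. The phosphate transporter Slc20a1 was higher by 1.01. The 4 mitochondrial carriers called, Slc25a3, Slc25a5, Slc25a10 and Slc25a13, were higher by 0.61 to 0.93. The members lower in endothelium included Slc40a1, at 3.54, 3.26 and 31.2 CPM (log2 fold change -2.48 ± 0.52 (SE), adjusted p = 0.00243, edgeR), and Slc4a3 (log2 fold change -2.06 ± 0.40 (SE), adjusted p = 0.000749, edgeR). The insulin-responsive glucose transporter Slc2a4, Slc22a17, a receptor for lipocalin, Slc39a13, Slc39a6, Slc50a1, the folate transporter Slc46a1, Slc4a4 and Slc47a1 were lower too. Slc47a1 had 0, 1 and 1 counts in endothelium. Markers of stroma summed to 202, 71.2 and 632 CPM in endothelium, and their part in the smaller C1 differences of Slc9a3r2 and Slc40a1 was not tested. Without Drop-seq 6 members and without 10x Chromium 7 were called, in place of 22, and Slc9a3r2 was called in each case. Of the 16 with the largest changes, Slc4a3 and Slc47a1 also held without Drop-seq, and Slc7a1 and Slc25a13 without 10x Chromium. Slc25a10, Slc25a13 and Slc47a1 were lost without C1.

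On a list of 15 carriers of vascular, blood and macrophage cells, 10 were tested in endothelium against stroma. Slc9a3r2, Slc7a1 and Slc29a1 were higher and Slc40a1 was lower. Slc40a1, through which macrophages return iron to plasma, reached 340.1 (222 to 498), 229.6 (172 to 300.3) and 215 (198 to 233) CPM in immune cells, above every compared class in each library. Slc25a37, the mitochondrial iron importer of heme-forming cells, was at 345 CPM (294 to 401) in the Drop-seq erythroid class, from 168 UMIs, and between 10.6 and 20.1 CPM in the 7 compared classes of that library. Slc25a38, the mitochondrial glycine carrier of heme synthesis, was at 34.9 CPM (20.3 to 55.8) in the same class. Summed erythroid markers were also at 1861 CPM in cap mesenchyme and 1422 CPM in endothelium of Drop-seq, and their part in the Slc25a37 levels there was not tested. The immune and erythroid classes were too small, or found in too few libraries, for a test.

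As a comparison within membrane transport, 39 of 45 channels, pumps and other transporters outside the Slc symbols were tested in the same fits. In proximal precursors against cap mesenchyme 14 of the 39 were higher and 1 lower, beside 10.4% and 6.12% of all tested genes. The higher ones included the water channel Aqp1, the organic anion pump Abcc2, the scaffold Pdzk1 and the sodium pump subunits Fxyd2 and Atp1b1. In distal precursors against cap mesenchyme 17 were higher and 3 lower, beside 9.67% and 7.53% of all tested genes. The higher ones included the channel subunit Bsnd and the potassium channel Kcnj1, partners of the Slc12a1 product in adult salt absorption. In early nephron 5 were higher and 1 lower, beside 3.12% and 1.51% of all tested genes. In stroma against cap mesenchyme 4 were higher and 0 lower, beside 8.22% and 4.32% of all tested genes. Endothelium against stroma gave 5 higher and 2 lower, beside 8.21% and 9.39%. The list was chosen for kidney transport, so its counts are not evidence on transport genes in general. Rare genes on it can pass the filter on low counts through the class in which they are high, so the counts are a description.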

How the data were processed

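Single-cell RNA of E14.5 wild-type kidney was analysed from 3 count tables, 1 per library. The authors deposited raw counts per gene and cell (UMIs for Drop-seq and 10x Chromium, reads for C1), as the whole-number values show. Per the submitters' processing notes, Bowtie2 2.2.7 and Cell Ranger 1.3.0 were among the tools and mm10 was the genome build. All 3 samples carry 1 preparation text, which describes Drop-seq, so how the 10x Chromium and C1 libraries were prepared is not stated in what was used here. The tables name genes by symbol, and 65 repeated symbol rows in 10x Chromium were summed.

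Cells with under 500 genes or over 20% mitochondrial counts were left out (C1 lists no mitochondrial gene, so the second filter could not act there). Scrublet, with 6% doublets expected, called 5 Drop-seq cells, too few to use, and 17 and 11 cells in 10x Chromium and C1, which were removed. Genes shared by the 3 tables were divided by alternation into 8554 open to clustering and 9078 for testing, which hold all Slc symbols. Each library was clustered on its own (scanpy 1.11.5, Leiden resolution 2, 1500 variable genes, 30 components, 15 neighbours) and clusters were named from 122 markers. A cluster needed at least 3 detected markers, 50% of the class's markers and a lead of 0.1 in mean z score. It also stayed unnamed where more of its top 10 genes were markers of another class than of its own, or where its median count was below 33.3% of its library's and none of its top genes was a marker of its class. By these 4 rules 8 clusters stayed unnamed. The resolution and the naming rule were set after cluster markers, but not Slc values, had been seen.

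Counts were summed per library and class of at least 20 cells, giving 23 sums in 8 classes, and fitted with edgeR 4.0.16 (R 4.3.3; TMM scaling, filter on low counts, robust quasi-likelihood, library as block, 13 residual degrees of freedom). The procedure was tested on simulated data. Named genes were, per comparison, the up to 8 called members with the largest change in each direction that moved the same way in every library. Others are mentioned by family or list, or were chosen after their values were seen. Members and lists were chosen with earlier results of these data known. The alternatives were DESeq2 1.42.0, no filter, no block, other resolutions, other clustering genes, classes by marker score and each library left out. Adjustment over the clustering genes as well and the 2 cell-name groups of C1 as separate blocks, and members that reach the UMI minimum outside the classes compared, were added after seeing the data. Some genes are not reported here. A search of 10 promoter motifs preceded the choice of 2.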

Additional observations from a re-analysis of the deposited data

How the results depend on the processing

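All 7 counts of members called stayed within 1.5 times under DESeq2, without the filter on low counts, with variable genes from all genes, with adjustment over the clustering genes too and among members that reach the UMI minimum outside the classes compared. Without the replicate block the counts were 0 for early nephron against cap mesenchyme, 19 for proximal precursors against cap mesenchyme, 5 for distal precursors against cap mesenchyme, 8 for proximal against distal precursors, 2 for ureteric epithelium against distal precursors, 0 for stroma against cap mesenchyme and 6 for endothelium against stroma. At an unadjusted p under 0.05 edgeR without the block had 9 members for early nephron and 17 for stroma, where it called 0. The block is the library, which the classes share by construction. At 1.5 times the resolution the counts were 18 for distal precursors against cap mesenchyme and 13 for stroma against cap mesenchyme. With classes by marker score they were 5 for early nephron, 11 for distal precursors and 10 for stroma, each against cap mesenchyme, and 9 for proximal and 5 for ureteric against distal precursors. With the 2 C1 cell-name groups as separate blocks, ureteric epithelium against distal precursors gave 5. Leaving out each library gave 0 to 16 for early nephron, 16 to 38 for proximal precursors, 9 to 31 for distal precursors and 4 to 27 for stroma, each against cap mesenchyme. It gave 10 to 25 for proximal and 5 to 17 for ureteric against distal precursors, and 6 to 32 for endothelium against stroma. At 0.5 times the resolution no distal class was found in enough libraries, so the comparisons with it had no value. Of 101 named calls, 18 held under every setting run, leaving aside the restriction to members that reach the UMI minimum outside the classes compared. Under that restriction those of Slc12a1, Slc39a5, Slc39a8, Slc47a1, Slc4a4, Slc6a13 and Slc6a8 drop out. These remain a description. The 1 reversal was Slc25a46 in ureteric epithelium against distal precursors, at 0.0032 (log2) with the C1 name groups. The cause was not tested. Of the 101 calls, 31 held without the block, 41 without Drop-seq, 43 without 10x Chromium and 88 without C1. The distal classes held 29 to 90 cells, which limits the precision of comparisons with them.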
